A study of Mus musculus with 24 samples.

Results

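The genes described here are 10 that write, oxidise or read methylated cytosine in RNA, chosen by name and matched by Ensembl identifier in the gene counts of mouse embryonic stem cells. They are the methyltransferases Nop2, Nsun2, Nsun3, Nsun4, Nsun5, Nsun6 and Trdmt1, the dioxygenase Alkbh1 and the RNA-binding proteins Alyref and Ybx1. All 10 were found among the 53900 features counted in both assays. The values are read counts of the RNA of these genes, in input or recovered in a pulldown. They say nothing of the proteins or of the methylation these place.

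The methyltransferases transfer a methyl group to carbon 5 of cytosine, giving 5-methylcytosine (m5C) in tRNA, ribosomal RNA and some mRNAs. TET dioxygenases and, in mitochondrial and cytoplasmic tRNA, ALKBH1 oxidise it further, which yields 5-hydroxymethylcytosine (hm5C) or 5-formylcytosine. Reader proteins bind the methylated base: ALYREF is an adaptor of mRNA export and YBX1 a cold shock protein reported to stabilise mRNAs.

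In the RefSeq annotation of GRCm38.p6, the assembly of mm10, the writers of ribosomal RNA are Nop2 (ENSMUSG00000038279, chr6:125131883-125144753) and Nsun5 (ENSMUSG00000000916, chr5:135369930-135376805). The mitochondrial writers are Nsun4 (ENSMUSG00000028706, chr4:116033002-116053879) and Nsun3 (ENSMUSG00000050312, chr16:62732444-62786884). The writers of tRNA are Nsun2 (ENSMUSG00000021595, chr13:69612016-69635780), Nsun6 (ENSMUSG00000026707, chr2:14990444-15055144) and Trdmt1 (ENSMUSG00000026723, chr2:13504879-13544797). The oxidase is Alkbh1 (ENSMUSG00000079036, chr12:87428077-87443839), and the readers are Alyref (ENSMUSG00000025134, chr11:120594504-120598399) and Ybx1 (ENSMUSG00000028639, chr4:119277327-119296265). The counts are per gene, so exons and introns are not told apart.

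The series asked which RNAs the dioxygenase TET2 contacts and which RNAs carry hm5C. In the crosslinking and immunoprecipitation (CLIP) assay, TET2 CLIP of clone 65, TET2 CLIP of clone 75, input of clone 65 and input of clone 75 had 2 libraries each. Both clones are of the stem cell line E14 and carry His- and HA-tagged TET2 in CLIP and input alike. They were given 4-thiouridine (500 µM, 4 hours) and UVB (400 mJ/cm2). The RNA immunoprecipitation (RIP) assay had 2 hm5C RIP and 2 input libraries from cells of the strain B6;129, with no treatment. All cells were grown on gelatin with leukemia inhibitory factor, 3 µM CHIR99021 and 1 µM PD0325901, which inhibit GSK3 and MEK. Each clone is 1 line, so its libraries repeat the culture and not the tagging. The 12 small RNA libraries of the series, from Tet2 KO, WT and E14 cells, were not used here, and no mock pulldown was analysed here.

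The TET2 CLIP libraries were shallow, with 221060 to 453944 counts, against 913002 to 4729463 in the CLIP inputs. The hm5C RIP libraries held 1564014 to 2100187 counts and the RIP inputs 4641963 to 4889943. The 10 stem cell markers summed to 1674 to 2500 CPM in TET2 CLIP and 1965 to 2409 CPM in input, where CPM is the count scaled to library size and TMM factor. Extraembryonic endoderm markers and primed or early lineage markers (4 each) stayed at or below 27.7 CPM in sum. The 5 fibroblast markers summed to 810 to 1440 CPM in TET2 CLIP and 1352 to 1890 CPM in input, nearly all of it Fn1, while Twist2 was at 0 in TET2 CLIP. The 4 trophoblast markers summed to 15.8 to 30.9 CPM in TET2 CLIP and 155 to 461.5 CPM in input, in input nearly all of it Gata3. The part of these differences in the results was not tested.

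In TET2 CLIP, none of the 10 genes was called higher or lower than in input, in both clones together or in either one. A call here is an adjusted p under 0.05 in edgeR's quasi-likelihood test. Of the 10 genes, 8 passed the filter on low counts, and Nsun3 and Trdmt1 did not. Over all 10334 tested features, 14.8% were called in both clones together (8.99% higher, 5.83% lower), against 0 of the 8 genes. In clone 65 it was 11.1% (8.21% higher, 2.87% lower) and in clone 75 10.2% (6.22% higher, 3.93% lower), against 0 of 8 in each clone. DESeq2's Wald test called 0 of them as well. At an unadjusted p under 0.05 there were 2 of them in both clones (Nop2 and Nsun5), 1 in clone 65 (Nop2) and 1 in clone 75 (Alkbh1). The same level was passed by 27% of all tested features in both clones, 22.6% in clone 65 and 22.4% in clone 75. The median log2 change of the 8 genes was -0.09 in both clones, beside -0.03 over all tested features. Summed over the 10 genes, the libraries held 450 to 565 CPM in TET2 CLIP and 488 to 528 CPM in input. Levels are not compared between genes here, because no transcript lengths were at hand to scale them.

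**Figure D1:**
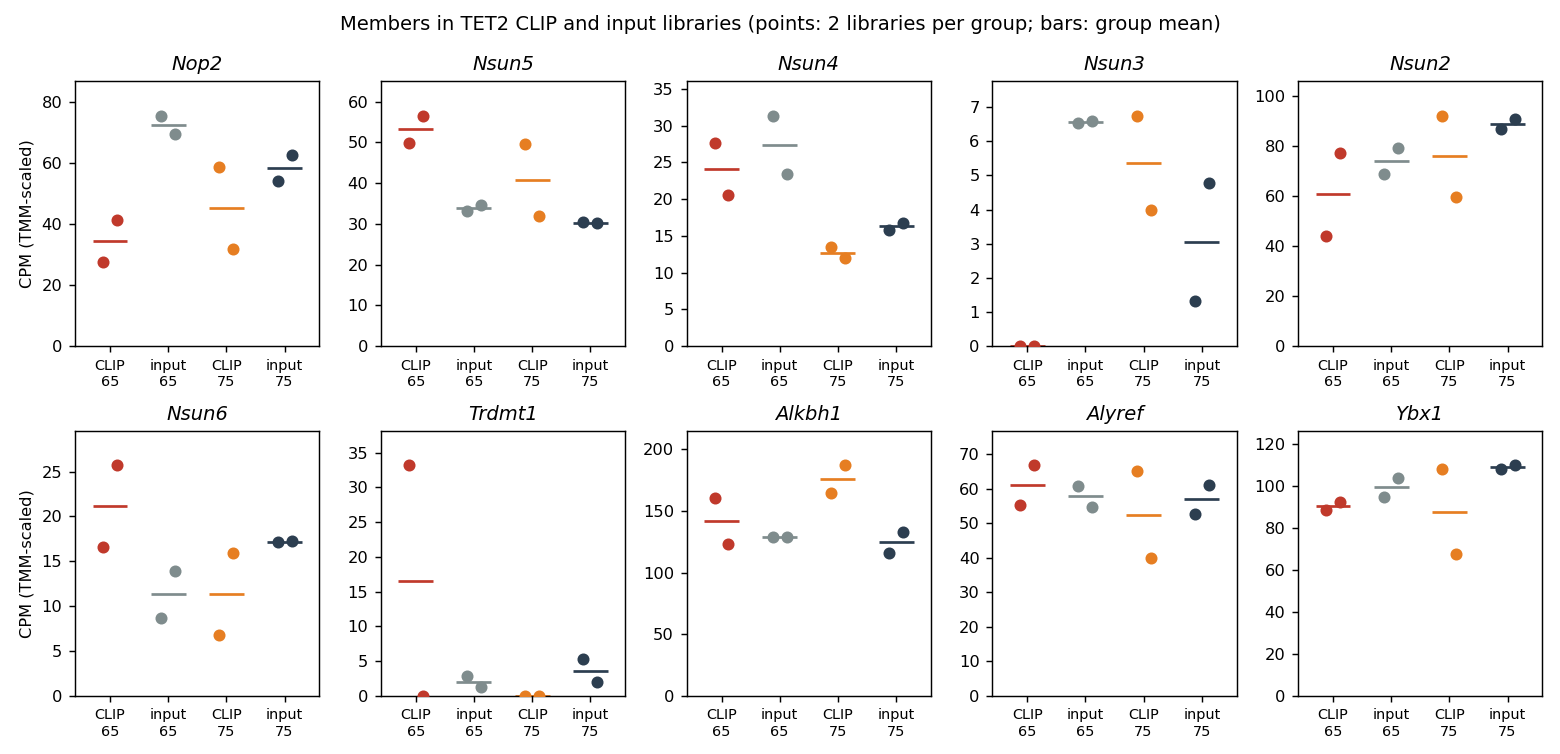
CPM (vertical axis, a scale of its own for each gene, starting at 0) of the 10 genes in the 2 libraries (points) of TET2 CLIP and of input of clones 65 and 75, with group means as bars. Nop2 lies below input in both TET2 CLIP libraries of clone 65, Nsun3 is at 0 there, and the level of Trdmt1 comes from 1 TET2 CLIP library.

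Among the writers of ribosomal RNA, Nop2 stood nearest to a call. It encodes the nucleolar methyltransferase of the large cytoplasmic ribosomal RNA, also known as a proliferation antigen. Nop2 had 27.7 and 41.1 CPM in TET2 CLIP of clone 65, against 75.5 and 69.4 CPM in input. In clone 75 it had 58.5 and 31.9 CPM in TET2 CLIP, against 54.1 and 62.6 CPM in input. The groups did not overlap in clone 65 and overlapped in clone 75. Behind these levels stand 13 and 34 counts in TET2 CLIP of clones 65 and 75. In edgeR the log2 change of Nop2 was -0.68 in both clones (SE 0.26, 95% interval -1.20 to -0.15, adjusted p 0.0770). It was -1.05 in clone 65 (SE 0.41, adjusted p 0.101) and -0.30 in clone 75 (SE 0.31, adjusted p 0.631). The difference between clones, clone 75 minus clone 65, was 0.75 (SE 0.54, edgeR adjusted p 0.553).

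Whether Nop2 passed the threshold depended on the libraries and settings used. In both clones together it was called lower without TET2 CLIP clone 65 replicate 2 (adjusted p 0.0243), CLIP input clone 75 replicate 1 (0.0384) or TET2 CLIP clone 75 replicate 1 (0.0162) in edgeR. Its log2 change without those libraries was -1.02, -0.81 and -1.10. In clone 65 it was called without either TET2 CLIP library of clone 75 (edgeR adjusted p 0.0362 and 0.0365), libraries that share only the fit with that contrast. Scaling by library size alone and leaving out the count filter also called it, as given among the processing alternatives.

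The 250 bases before the annotated start of Nop2 are shown because Nop2 stood nearest to a call, beside those of the tRNA writer Nsun2. Both are from RefSeq (GRCm38.p6), 5′ to 3′ on the plus strand, at chr6:125131633-125131882 for Nop2 and chr13:69611766-69612015 for Nsun2. Capitals mark matches, on either strand, to CACGTG (E-box), CCGGAAG (ETS), GGGCGG (GC box), CCAAT or TATAAA.
Nop2: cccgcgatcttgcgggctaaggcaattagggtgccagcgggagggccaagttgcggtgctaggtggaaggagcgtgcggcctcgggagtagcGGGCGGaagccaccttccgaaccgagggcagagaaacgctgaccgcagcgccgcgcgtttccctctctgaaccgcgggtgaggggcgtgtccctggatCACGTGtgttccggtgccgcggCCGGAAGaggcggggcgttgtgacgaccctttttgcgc
Nsun2: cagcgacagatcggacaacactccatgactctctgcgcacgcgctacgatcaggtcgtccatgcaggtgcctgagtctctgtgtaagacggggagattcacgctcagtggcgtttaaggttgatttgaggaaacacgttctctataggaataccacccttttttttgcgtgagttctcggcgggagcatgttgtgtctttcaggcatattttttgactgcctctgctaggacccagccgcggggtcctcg
The Nop2 window held 30 CpG, a number reached by 5.94% of the 32851 windows in the table, and the Nsun2 window 17, reached by 23.5%. CACGTG occurs in the Nop2 window and in no other of the 11 windows matched to 9 of the genes, and in 6.02% of all windows. CCGGAAG is in 5 of the 11 windows and in 6.91% of all, GGGCGG in 5 and in 32.7%, CCAAT in 3 and in 33.8%, TATAAA in 1 and in 12.4%. The Nsun2 window holds none of the 5 motifs. Matches are a description of these letters and were set against no binding data.

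Nsun5 encodes the other methyltransferase of the large cytoplasmic ribosomal RNA. Nsun5 had 49.8 and 56.6 CPM in TET2 CLIP of clone 65, against 33.2 and 34.6 CPM in input. In clone 75 it had 49.5 and 31.9 CPM in TET2 CLIP, against 30.3 and 30.1 CPM in input. TET2 CLIP lay above input in each clone, while over both clones the lowest TET2 CLIP library, at 31.9 CPM, fell within the range of the inputs. The log2 change was 0.58 in both clones (SE 0.27, 95% interval 0.03 to 1.12, edgeR adjusted p 0.159). It was 0.65 (SE 0.40, edgeR adjusted p 0.355) in clone 65 and 0.51 (SE 0.36, edgeR adjusted p 0.441) in clone 75.

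The end of Nsun5 overlaps the neighbouring gene Pom121, which encodes a nuclear pore protein, over 666 bases on chromosome 5 (Nsun5 at 135369930-135376805, Pom121 at 135376140-135404841, GRCm38.p6). How the counting treated shared reads is not given in the sources used here, so the counts of the pair are uncertain over that stretch. Pom121 had 71.9 and 82.3 CPM in TET2 CLIP of clone 65 and 171 and 163 CPM in that of clone 75, against 143, 136, 171 and 202 CPM in the inputs in the same order of clones. Taken by clone, Pom121 was called lower in clone 65 (log2 change -0.85, edgeR adjusted p 0.0393) and not in clone 75 (-0.18, adjusted p 0.607). Between inputs it was called higher in clone 75 (0.45, edgeR adjusted p 0.0171). In both clones together Pom121 fell (log2 change -0.51, SE 0.16, edgeR adjusted p 0.0294), the other direction from the Nsun5 values. The part of shared reads in this was not tested. The Pom121 call was lost without either input library of clone 65 (edgeR adjusted p 0.0722 and 0.0514) or input replicate 2 of clone 75 (0.104), and with the replicate block (0.0962).

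Nsun4 and Nsun3 act in mitochondria, Nsun4 on the small ribosomal RNA and Nsun3 on the methionine tRNA. Nsun4 had 27.7 and 20.6 CPM in TET2 CLIP of clone 65, against 31.4 and 23.4 CPM in input. The values of clone 75 were 13.5 and 11.9 CPM in TET2 CLIP, against 15.8 and 16.7 CPM in input. The groups overlapped in clone 65, and in clone 75 TET2 CLIP, with 6 and 3 counts, lay below input. The log2 change was -0.25 in both clones (SE 0.40, edgeR adjusted p 0.738). Its 95% interval, -1.06 to 0.56, holds a 2-fold lower level.

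Nsun3 was too rare to pass the count filter. TET2 CLIP of clone 65 held 0 counts of 444473, against 57 of 7689913 in input. The 0 counts allow up to 6.75 CPM by total counts, only just under the 7.41 CPM of input, and this limit covers counting error alone. Without the count filter, edgeR did not call Nsun3 in clone 65 (log2 change -6.45, 95% interval -12.37 to -0.53, adjusted p 0.284). A lower level in TET2 CLIP was thus not established at this depth. In clone 75 there were 4 counts in TET2 CLIP and 11 in input, a depth-scaled ratio of 1.64 with an exact 95% binomial interval of 0.380 to 5.52. Such intervals cover counting error only. The interval in clone 75 spans 1. The long noncoding RNA gene Gm52231 overlaps Nsun3 over 10834 bases and was not found among the counted features.

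Nsun2, Nsun6 and Trdmt1 methylate tRNAs, and NSUN2 also methylates other RNAs. Nsun2 had 44.2 and 77.1 CPM in TET2 CLIP of clone 65, against 69.0 and 79.3 CPM in input. Its clone 75 levels were 92.3 and 59.7 CPM in TET2 CLIP, against 87.0 and 90.9 CPM in input. In each clone 1 of the 2 TET2 CLIP libraries lay below both inputs and the groups overlapped. The log2 change of Nsun2 was -0.22 in both clones (SE 0.21, 95% interval -0.66 to 0.21, edgeR adjusted p 0.554).

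Nsun6 had 16.6 and 25.7 CPM in TET2 CLIP of clone 65, against 8.70 and 13.9 CPM in input. In clone 75 the order was the opposite, with 6.75 and 15.9 CPM in TET2 CLIP, against 17.1 and 17.2 CPM in input. These TET2 CLIP levels rest on 3 to 5 counts per library. The log2 change was 0.85 (SE 0.67) in clone 65 and -0.76 (SE 0.64) in clone 75. The difference, clone 75 minus clone 65, was -1.61 (SE 0.93, 95% interval -3.52 to 0.29, edgeR adjusted p 0.432), so the clones were not shown to differ. In both clones together the log2 change was 0.04 (SE 0.47, edgeR adjusted p 0.971).

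Trdmt1, also called Dnmt2, belongs by sequence to the DNA methyltransferases and methylates tRNA. Its TET2 CLIP counts came from a single library: 6 and 0 in clone 65 and 0 and 0 in clone 75, against 9, 7, 4 and 4 in the inputs in that order. The 6 counts correspond to 33.2 CPM, against 1.28 to 5.27 CPM in the 4 inputs. Over the libraries of clone 65 the pooled ratio of TET2 CLIP to input was 6.49 after division by depth (6 of 444473 against 16 of 7689913, exact 95% binomial interval 2.08 to 17.5). That interval treats the libraries as 1, although the other TET2 CLIP library of the clone held none. Without that empty library, TET2 CLIP clone 65 replicate 2, Trdmt1 passed the filter and was called higher in clone 65 (log2 change 3.87, edgeR adjusted p 0.0224), with 1 TET2 CLIP library assumed to vary like the other groups. It passed the filter there only through the library where it was high, so that value is a description and supports no difference. In clone 75 the 0 counts allow up to 4.23 CPM in TET2 CLIP, above the 2.51 CPM of input by total counts, so a lower level in TET2 CLIP was not detectable at this depth.

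Alkbh1 encodes a dioxygenase of tRNA that acts on methylated adenosine and, in mitochondrial and cytoplasmic tRNA, on m5C. Alkbh1 had 160.4 and 123 CPM in TET2 CLIP of clone 65, against 129 and 129 CPM in input. The clone 75 libraries had 164 and 187 CPM in TET2 CLIP, against 116 and 133 CPM in input. The groups overlapped in clone 65 and not in clone 75. The log2 change was 0.29 in both clones (SE 0.15, 95% interval -0.02 to 0.59, edgeR adjusted p 0.216). In clone 75 alone it was 0.44 (SE 0.19, 95% interval 0.07 to 0.82, edgeR adjusted p 0.139), and in clone 65 0.13 (SE 0.23, edgeR adjusted p 0.794). The difference, clone 75 minus clone 65, was 0.31 (SE 0.29, edgeR adjusted p 0.662). The microRNA gene Mir3068, which lies within Alkbh1, had at most 2 counts in any CLIP library. The protein-coding gene Nrp overlaps Alkbh1 over 992 bases and was not found among the counted features. The origin of reads over that stretch is therefore uncertain.

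The features most like Alkbh1 were sought over the 8 CLIP libraries. It was taken because the most counts stand behind it among the 10 genes, which, without transcript lengths, says nothing of its level relative to them. Among 10333 features, Klf16 (Pearson r 0.987 of log2 CPM), Gm17029 (0.982) and 6330537M06Rik (0.966) came first. This is a description over 8 libraries that share depth and group differences, with the highest of many values taken.

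Neither reader was called between TET2 CLIP and input, and both had narrow intervals. Alyref had 55.3 and 66.8 CPM in TET2 CLIP of clone 65, against 60.9 and 54.8 CPM in input. Clone 75 gave 65.3 and 39.8 CPM in TET2 CLIP, against 52.7 and 61.2 CPM in input. The groups overlapped in both clones. The log2 change of Alyref was 0.01 (SE 0.23, 95% interval -0.46 to 0.48, edgeR adjusted p 0.982), an interval within 2-fold in either direction.

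Ybx1 had 88.5 and 92.6 CPM in TET2 CLIP of clone 65, against 95 and 104 CPM in input. In clone 75 it had 108 and 67.7 CPM in TET2 CLIP, against 108 and 110.0 CPM in input. In each clone both TET2 CLIP libraries lay below both inputs, although 1 of them in clone 75 only just (108.03 CPM, against 108.12 CPM in input). The log2 change of Ybx1 was -0.19 in both clones (SE 0.18, 95% interval -0.56 to 0.18, edgeR adjusted p 0.556). The pseudogene Ybx1-ps2, whose name marks it as a copy of Ybx1, could share reads with it. Ybx1-ps2 had 22.1 and 41.1 CPM in TET2 CLIP of clone 65 and 29.3 and 23.9 CPM in that of clone 75, against 15.5, 12.1, 18.5 and 16.7 CPM in the inputs in the same order. All 4 TET2 CLIP libraries lay above the inputs, and its log2 change was 0.95 (SE 0.36, edgeR adjusted p 0.0736). The split of reads between Ybx1 and its copy is therefore uncertain.

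**Figure D2:**
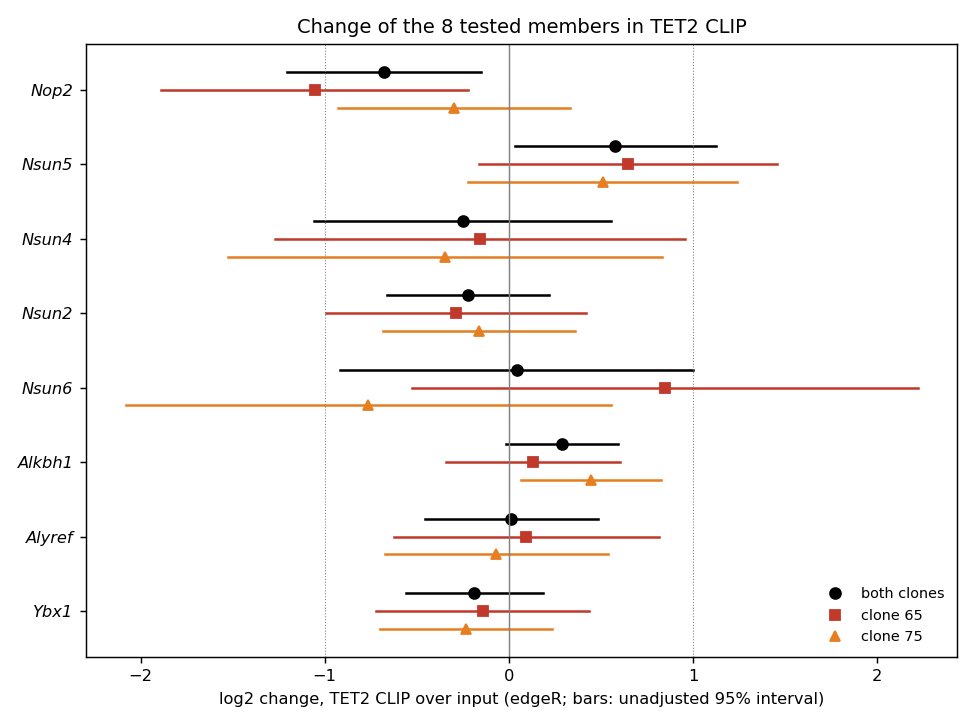
Log2 change of the 8 tested genes, TET2 CLIP over input (horizontal axis), in both clones, clone 65 and clone 75; bars are unadjusted 95% intervals from edgeR and dotted lines mark 2-fold. Nop2 lies at -0.68, -1.05 and -0.30, Nsun5 at 0.58, 0.65 and 0.51, and no adjusted p was under 0.05.

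The intervals show what size of change these libraries could have missed. In both clones together, 4 of the 8 tested genes (Nsun2, Alyref, Ybx1 and Alkbh1) had 95% intervals within 2-fold in either direction. The intervals of Nop2, Nsun4, Nsun5 and Nsun6 reached beyond it. Standard errors ran from 0.15 for Alkbh1 to 0.47 for Nsun6 on the log2 scale. For the difference between clones, where 0 of 8 were called against 2.54% of all tested features (0.329% higher, 2.22% lower), only the intervals of Ybx1 and Alkbh1 stayed within 2-fold. An unadjusted p under 0.05 was reached by 0 of 8, against 15.2% of all features.

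The inputs give the levels of the genes' RNA in each clone after 4-thiouridine and crosslinking. Cell markers differed between these inputs too. Of 10 stem cell markers, 0 were called higher and 2 lower in clone 75 (edgeR). The 1 tested trophoblast marker was called higher there (log2 change 1.35). The part of the markers in the values below was not tested. In bulk RNA, fewer cells with an mRNA and less of it per cell cannot be told apart. Of the 8 tested genes, 0 were called between inputs of clone 75 and clone 65 (edgeR), against 6.90% of all tested features (1.90% of them all were called lower). DESeq2 called 0 as well, and 1 gene, Nsun4, had an unadjusted p under 0.05, against 17.2% of all features. Nsun4 had 15.8 and 16.7 CPM in input of clone 75, against 31.4 and 23.4 CPM in input of clone 65. The groups did not overlap, and the log2 change was -0.70 (SE 0.27, 95% interval -1.25 to -0.14, edgeR adjusted p 0.142). Nsun6 had 17.1 and 17.2 CPM in input of clone 75, against 8.70 and 13.9 CPM in that of clone 65 (log2 change 0.54, SE 0.33, edgeR adjusted p 0.438). The other 6 tested genes had log2 changes of -0.26 (Nop2) to 0.26 (Nsun2), with 95% intervals within 2-fold.

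TET2 is the protein pulled down, and its own mRNA served as a reference point. Tet2 had 311 to 393 CPM in the 4 TET2 CLIP libraries, against 342 to 369 CPM in the 4 inputs (log2 change -0.01, SE 0.12, edgeR adjusted p 0.968). Of the 3 TET oxidases, 1 was called higher and 0 lower in both clones. Tet3, another TET dioxygenase, had 111 and 87.4 CPM in TET2 CLIP of clone 65 and 65.3 and 47.8 CPM in that of clone 75, against 34.2, 41.0, 43.5 and 43.5 CPM in the inputs in the same order. All 4 TET2 CLIP libraries lay above the inputs. Taken by clone, Tet3 was called higher in clone 65 (log2 change 1.37, edgeR adjusted p 0.0031) and not in clone 75 (0.43, adjusted p 0.446). The difference, clone 75 minus clone 65, was -0.94 (SE 0.42, unadjusted p 0.0349, edgeR adjusted p 0.280). In both clones together the log2 change was 0.90 (SE 0.22, edgeR adjusted p 0.00392). The Tet3 call was lost without TET2 CLIP clone 65 replicate 1 (edgeR log2 change 0.66, adjusted p 0.0839) or TET2 CLIP clone 75 replicate 1 (0.63, adjusted p 0.195), and without the count filter (0.54, adjusted p 0.174).

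Lists of related genes were set beside the 10, read against the same 8.99% higher and 5.83% lower among all tested features. The other enzymes that modify cytosine in RNA (6 of 8 tested, Nat10 among them), the other RNA-binding proteins reported to bind m5C with cold shock relatives (5 of 7) and the export complex TREX (11 of 13) had 0 calls in either direction in edgeR. At an unadjusted p under 0.05 these lists had 0, 1 and 0 genes. Their median log2 changes were -0.17, -0.0009 and -0.27, beside -0.03 over all features. Of 15 tested genes of ribosomal RNA modification, 1 was higher and 0 lower, and of 34 of other tRNA modification, 1 was higher and 1 lower. Of the 16 genes of N6-methyladenosine (m6A), the methylation of adenosine in mRNA, 0 were higher and 3 lower. Of 5 tested genes of DNA cytosine methylation, 0 were higher and 1, Uhrf1, was lower.

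Within the m6A list, Wtap, a regulatory subunit of the m6A writer complex, was the called gene with the smallest p in both clones together. Wtap had 88.5 and 103 CPM in TET2 CLIP of clone 65 and 60.8 and 99.6 CPM in that of clone 75, against 557, 430, 550 and 493 CPM in the inputs in the same order. The groups were far apart. Wtap fell by 2.57 on the log2 scale (SE 0.17, edgeR adjusted p 2.39e-13), and this call was kept without each of the 8 libraries. Rbm15, an RNA-binding subunit of the same complex, fell by 1.17 on the log2 scale (SE 0.21, edgeR adjusted p 0.000104), and was called without each of the 8 libraries too. Taken by clone, Rbm15 was called lower in clone 65 (log2 change -1.88, edgeR adjusted p 0.000195) and not in clone 75 (-0.46, adjusted p 0.220). The difference, clone 75 minus clone 65, was 1.42 (SE 0.45, unadjusted p 0.00403, edgeR adjusted p 0.0943).

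Calls among the tRNA and ribosomal RNA enzymes differed in how they held up without single libraries. Trmt10c, a subunit of mitochondrial RNase P, had 116 and 87.4 CPM in TET2 CLIP of clone 65, against 11.8 and 13.4 CPM in input. In clone 75 Trmt10c had 6.75 and 19.9 CPM in TET2 CLIP, against 11.9 and 15.8 CPM in input. Only the groups of clone 65 were apart, and the log2 change there was 2.98 (SE 0.38, edgeR adjusted p 4.47e-07). The difference, clone 75 minus clone 65, was -3.33 (SE 0.65, edgeR adjusted p 0.00248) and was lost without input replicate 2 of clone 75 (adjusted p 0.169). Dus3l, a dihydrouridine synthase, fell by 1.62 on the log2 scale over both clones together (SE 0.39, edgeR adjusted p 0.00337) and was called without each library. Taken by clone, Dus3l was called lower in clone 65 (log2 change -2.24, edgeR adjusted p 0.0317) and not in clone 75 (-1.0004, adjusted p 0.106), and the difference between clones was not called (1.24, adjusted p 0.565). Mrm2, a methyltransferase of mitochondrial ribosomal RNA, was higher by 1.51 over both clones together (edgeR adjusted p 0.0424). Its inputs, at 3.96 to 9.32 CPM, lay below what the count filter asks for. Mrm2 thus passed only through TET2 CLIP libraries, where it was high. Trmt10c did not pass on its inputs alone either. Both higher calls, also counted in the lists above, are therefore a description. The Mrm2 call remained in 2 of 8 fits without a library and the Trmt10c call in both clones, 1.32 (edgeR adjusted p 0.0257), in 3 of 8; without 1 library the log2 change ranged from 0.48 to 1.82 for Mrm2 and from 0.84 to 1.59 for Trmt10c.

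**Figure D3:**
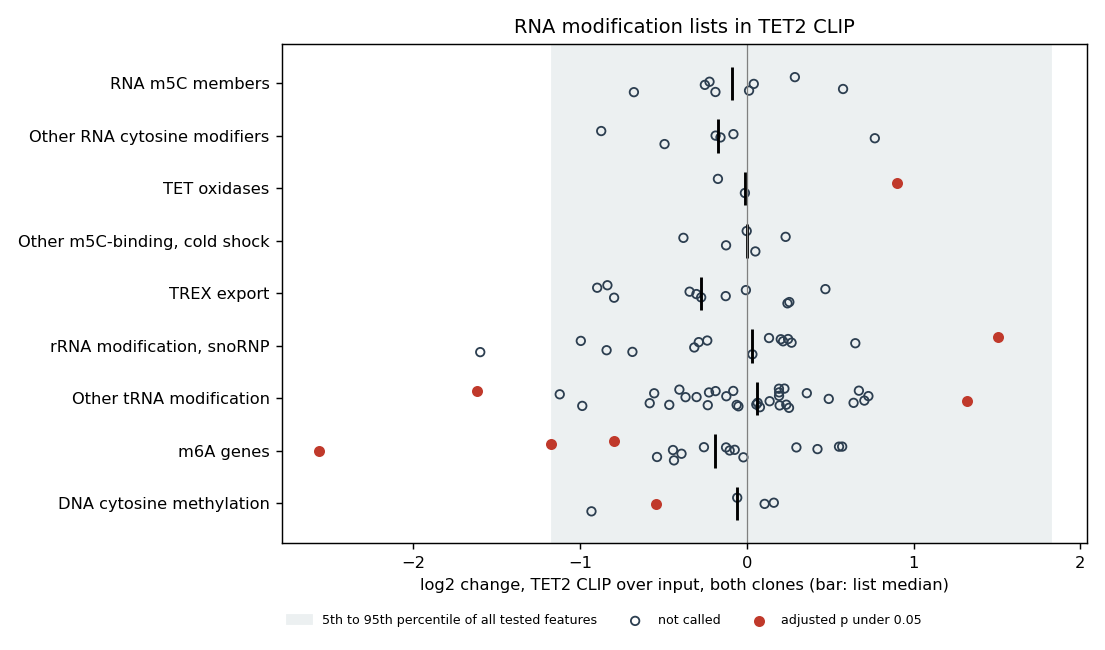
Log2 change in TET2 CLIP over input, both clones (horizontal axis), of the tested genes of each list (circles; filled red for an edgeR adjusted p under 0.05), with list medians as bars and the 5th to 95th percentile of all tested features shaded. The 8 tested genes of RNA m5C, in the top row, lie between -0.68 and 0.58, inside the shaded range of -1.17 to 1.82.

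In hm5C RIP, the 10 genes were close to the limit of detection. Summed over the 10, there were 11 and 14 counts in the hm5C RIP libraries, against 38 and 54 in the inputs. Ybx1 was the only one to pass the count filter, and it was not called, where 51.9% of the 2081 tested features were. Ybx1 had 2 and 5 counts in hm5C RIP (1.31 and 2.07 CPM), against 15 and 27 counts in input (3.63 and 5.74 CPM). The groups did not overlap, and the log2 change was -1.40 (SE 0.64, 95% interval -2.88 to 0.07, edgeR adjusted p 0.103, unadjusted p 0.0597). In hm5C RIP its levels were below what the count filter asks for. Ybx1 passed the filter only through the inputs, where it was higher, so these values are a description and support no difference. The Ybx1 pseudogene Ybx1-ps2 had more counts than Ybx1 itself, 16 and 14 in hm5C RIP and 16 and 38 in input, which overlapped.

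The counts of the other genes were smaller still. Alyref had 3 and 4 counts in hm5C RIP, against 8 and 10 in input. Nsun2 had 1 and 4 against 6 and 4, Alkbh1 2 and 1 against 5 and 3, and Nop2 1 and 0 against 3 and 8, hm5C RIP before input each time. Nsun4, Nsun5 and Nsun6 had at most 1 count in any RIP library. Nsun3 and Trdmt1 had 0 in all 4, which allows up to 0.819 CPM by total counts over hm5C RIP and 0.315 CPM over input.

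The ratio of these counts depends on what they are divided by. Acsl6, a gene singled out after its values were seen, took 55.2% and 60.6% of counts in hm5C RIP, against 0.255% and 0.167% in input. The pooled ratio of hm5C RIP to input over the 10 genes, with all counts as the denominator, was 0.707 (25 counts against 92, exact 95% binomial interval 0.435 to 1.11). With counts other than Acsl6 as the denominator, it was 1.69 (interval 1.04 to 2.66). For Ybx1 the same ratios were 0.434 (0.164 to 0.974) and 1.04 (0.393 to 2.33). The direction of the sum thus turned with the denominator. These intervals cover counting error alone, and the replicates differed by far more (chi-square over its degrees of freedom 22.5 and 26.4, where counting error alone gives about 1). The other features moved with the denominator too. With library size alone, the median log2 change of all tested features in edgeR was 0.36 with Acsl6 and 1.99 without it. The ratio of 1.69 is therefore no rise relative to the other features.

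**Figure D4:**
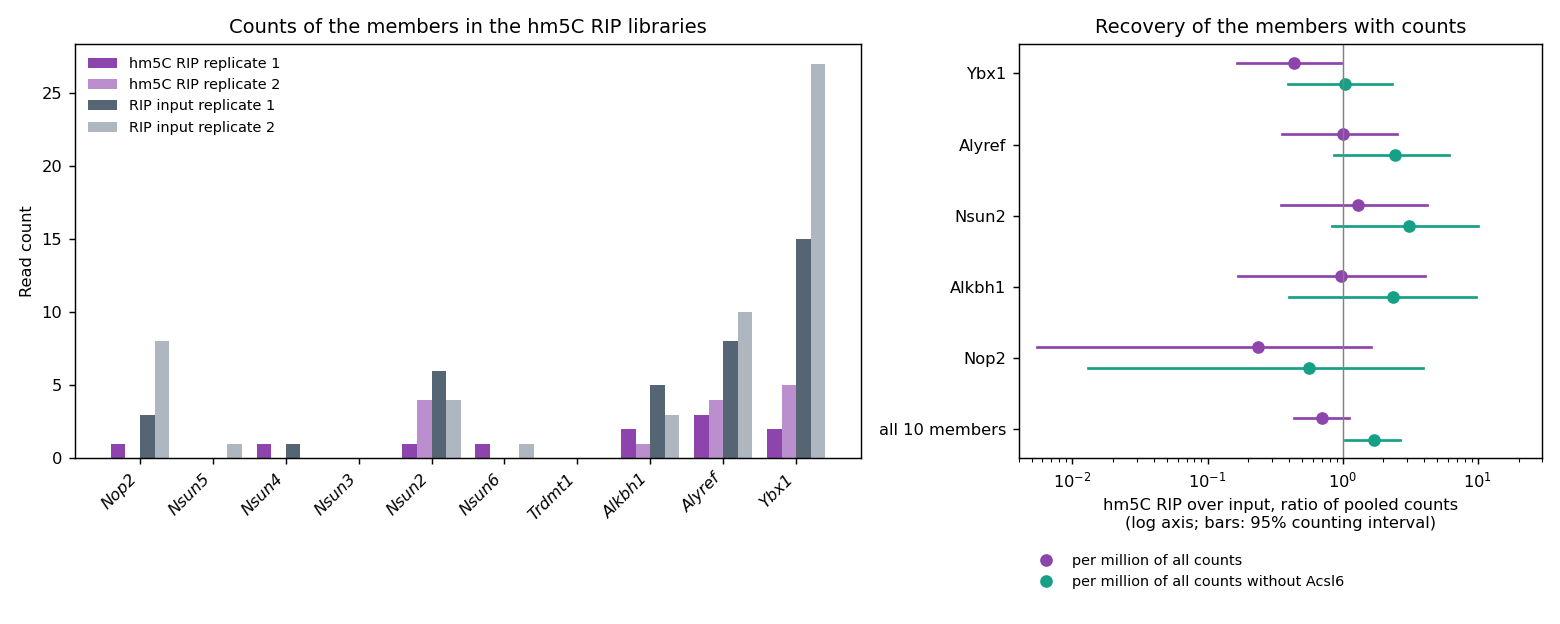
Left, read counts (vertical axis, from 0) of the 10 genes in the 2 hm5C RIP and 2 input libraries; no bar reaches above 27. Right, ratio of pooled counts, hm5C RIP over input (log axis), for 5 of the genes and the sum of all 10, relative to all counts and to counts without Acsl6, with exact 95% binomial intervals; the sum lies at 0.707 and 1.69.

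Of the lists, few genes could be tested in hm5C RIP, where 33.0% of all tested features were called higher and 18.9% lower. Of 43 other tRNA modification enzymes, 4 passed the count filter and all 4 were called higher, among them Ctu2, a tRNA thiolase subunit (log2 change 5.54, SE 0.59, edgeR adjusted p 0.000362), and Trub2, a pseudouridine synthase (3.24, SE 0.51, edgeR adjusted p 0.00130). Ctu2 had 47 and 63 counts in hm5C RIP, against 4 and 1 in input, and Trub2 had 5 and 9 in hm5C RIP, against 2 and 1 in input. The Trub2 call was lost in DESeq2 (adjusted p 0.0660) and without the count filter in edgeR (adjusted p 0.280). Genes this rare in input pass the filter only where hm5C RIP is high, so this count is a description. The TET oxidases (2 of 3 tested) and TREX (2 of 13) had 0 calls in edgeR and 0 at an unadjusted p under 0.05, against 56.4% of all tested features at that level. Of the other enzymes that modify cytosine in RNA none of 8 was tested. The m6A list had 2 higher (Ythdf1 and Fto) and 0 lower of 4 tested, the ribosomal RNA list 0 higher and 1 lower (Nop56) of 4. Beside these, the stem cell markers had 0 higher and 2 lower of 6 tested and the fibroblast markers 2 higher and 0 lower of 3. Whether the higher genes of these lists passed the filter only through hm5C RIP was not checked. These counts are therefore a description too, and show no difference in cell types. The part of the cell markers in the values of the 10 genes was not tested.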

How the data were processed

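CLIP (8 libraries) and RIP (4 libraries) were analysed, grouped by their labels. The values are raw read counts per gene as the authors deposited them, whole numbers with differing sums. The submitters' processing notes name UMI-tools, cutadapt, STAR 2.5.3a, Bowtie2 2.2.6 and mm10; the counting tool and its use of strand are not given in the sources used here. RIP libraries were made with a small RNA kit and CLIP libraries with a custom eCLIP protocol, per the labels, so the assays were fitted apart.

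Counts were tested with edgeR 4.0.16 in R 4.3.3 (filterByExpr, then TMM and the robust quasi-likelihood F-test, with Benjamini-Hochberg adjustment over all tested features and a threshold of 0.05). CLIP was fitted over 8 libraries with 5 contrasts. CPM divide each count by the library size times its TMM factor. Standard errors are the log2 change over the root of F, and intervals use t with the fit's degrees of freedom. Pooled ratios carry exact binomial intervals (95%), with 3 counts as the floor. The test was also run on simulated counts for TET2 CLIP over input and hm5C RIP over input. The clone difference and the input contrast were not part of that run, and its outcome is not given here. In all 6 groups the replicate libraries varied beyond counting error (chi-square over its degrees of freedom 1.82 to 26.4); they are biological replicates per the series' design text.

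Named were the 10 genes, Tet2, up to 2 called genes of each list with the smallest p in a contrast (some without values), and the 3 features most like the member with the highest CPM. Pom121, Ybx1-ps2 and Acsl6 were named after their values were seen. The genes and lists were chosen with earlier results of these data known. Gene positions and overlaps are from RefSeq, GRCm38.p6. Alternatives were DESeq2 1.42.0 size factors and Wald test, library size alone, no count filter, a replicate block, a clone's 4 libraries alone, leaving out each library and RIP without Acsl6. The 12 small RNA libraries were not used.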

Additional observations from a re-analysis of the deposited data

Results flagged for a closer look

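Trdmt1 in TET2 CLIP stood out because 1 library lay far from the others: TET2 CLIP clone 65 replicate 1 had 33.2 CPM, which is 6 counts, and the other 3 TET2 CLIP libraries were at 0. The gap filled the whole range of the 4 libraries, beyond Dixon's 95% critical value. With the other 3 libraries at 0, any count above 0 would have done so, and the flag is a description only. Of 20 groups tested, 4 libraries each, this was the 1 that passed. The rule's chance rate of about 1 in 20 is meant for continuous values and not for counts at 0.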

How the results depend on the processing

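No gene of the 10 was called in the reported fits. Where 1 was called, it came from scaling, the count filter or a left-out library. Scaling by library size alone called 1 in both clones (Nop2, log2 change -0.80, edgeR adjusted p 0.0295), 1 in clone 65 (Nop2, -1.47, 0.00754), 1 in clone 75 (Alkbh1, 0.62, 0.0484) and 2 between inputs (Nop2, -0.62, 0.0220; Nsun4, -1.05, 0.00963). That scaling moved the median of all features to -0.15, -0.45, 0.21 and -0.34 in these contrasts and to 0.60 for the clone difference. Relative to the median, Nop2 was at -0.65, against -0.65 with TMM, in both clones. Without the count filter, 1 was called in both clones (Nop2, -1.04, edgeR adjusted p 0.00208) and 1 in clone 65 (Nop2, -1.53, 0.00581). Leaving out 1 library gave 0 to 1 calls in both clones and in clone 65, and 0 in the other contrasts. A group left with 1 library is assumed to vary like the others. Over those fits Nop2 ranged from -1.10 to -0.64 in both clones (edgeR adjusted p 0.0162 to 0.199). DESeq2's Wald test (adjusted p 0.0938) and the replicate block (-0.70, edgeR adjusted p 0.138) did not call Nop2.

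The direction of genes that were not called turned in places. With library size alone the log2 change was -0.0858 for Nsun6 and -0.11 for Alyref in both clones, -0.32 for Alyref and -0.28 for Alkbh1 in clone 65, and 0.0920 for Alyref in clone 75. For the clone difference it was 0.38 for Nsun4, 0.43 for Nsun5, 0.41 for Alyref and 0.48 for Ybx1, and between inputs -0.0929 for Nsun2, -0.33 for Alyref and -0.23 for Ybx1. Relative to the median of all features under the same scaling, none of these signs turned with library size alone. Alyref in clone 65, for one, was at 0.13 relative to the median, against 0.13 with TMM. Without the count filter the log2 change was -0.32 for Nsun6, -0.35 for Alyref and -0.0684 for Alkbh1 in both clones, and -0.38 for Alyref and -0.34 for Alkbh1 in clone 65. For the clone difference without that filter it was 0.0354 for Nsun4, 0.0875 for Nsun5, 0.0631 for Alyref and 0.13 for Ybx1, between inputs -0.0871 for Alyref, and in RIP -0.26 for Ybx1-ps2. The replicate block gave -0.0037 for Alyref in both clones. RIP without Acsl6 and with library size alone gave 0.0819 for Ybx1, where the median of all features was 1.99.

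Leaving out 1 library turned the sign within these ranges. In both clones they were -0.34 to 0.25 for Nsun6 and -0.35 to 0.0468 for Alyref; in clone 65, -0.28 to 0.11 for Alyref and -0.24 to 0.0847 for Alkbh1; in clone 75, -0.0248 to 0.66 for Nsun5 and -0.66 to 0.10 for Alyref. For the clone difference they were -0.27 to 0.70 for Nsun2, -0.35 to 0.0755 for Nsun4, -0.54 to 0.14 for Nsun5, -0.63 to 0.13 for Alyref and -0.52 to 0.20 for Ybx1. Between inputs they were -0.12 to 0.0819 for Alyref and -0.15 to 0.0318 for Alkbh1, and in RIP -0.37 to 0.73 for Ybx1-ps2. The cause of these turns was not tested.

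Counts of all called features moved by over 1.5 times as follows. In both clones 2678 were called without the filter, against 1531. In clone 65 it was 2010 with library size alone, 1978 without the filter and 736 to 1597 without 1 library, against 1145. In clone 75 it was 646 with the replicate block and 482 to 1402 without 1 library, against 1049. For the clone difference it was 742 with library size alone, 173 with the replicate block and 87 to 372 without 1 library, against 263. Between inputs it was 1801 with library size alone, 328 in DESeq2, 408 with the replicate block and 138 to 1075 without 1 library, against 713. In RIP it was 1774 without Acsl6 and with library size alone, and 647 to 1385 without 1 library, against 1080. Library size alone split the calls into 808 higher and 922 lower in both clones, against 929 and 602 with TMM. The split was 684 and 1326 against 848 and 297 in clone 65, 872 and 264 against 643 and 406 in clone 75, 638 and 104 against 34 and 229 for the clone difference, and 242 and 1559 against 517 and 196 between inputs. RIP without Acsl6 and with library size alone gave 1686 higher and 88 lower, against 686 and 394.

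Replicate numbers were not shown to pair libraries (correlation of deviations -0.0185 to 0.0222, with 2 numbers a group). The depth limits these results: the 95% intervals of Nop2, Nsun4, Nsun5 and Nsun6 in both clones reach beyond 2-fold, and in hm5C RIP 9 of the 10 genes were below the count filter.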
